A study of Mus musculus with 8 samples.

Results

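Acetylation of histone H3 at lysine 27 (H3K27ac) in naive mouse embryonic stem cells without MLL3 and MLL4 (naive DKO, double knockout) was set against naive wild-type cells (naive WT). The regions compared were the 107204 of 112137 in the deposited table that had a value above 0 in both naive groups, and the quantity was the log2 level in naive DKO minus that in naive WT. The mark was profiled by CUT&Tag, in which a transposase tethered to an antibody-bound mark cuts and tags the DNA beside it. There were 2 libraries in each of 4 groups: naive DKO, naive WT, and formative DKO and formative WT cells taken at 63 hours of LIF2i withdrawal. The WT groups were the R1 embryonic stem cell line, the labels give no line for the DKO groups, and whether the DKO cells were 1 clone is not stated. The table holds 1 pooled value per group and region, so no difference below has an SD, an n or a p-value. A region was called higher or lower in naive DKO at an absolute log2 difference of at least 1, which is 2-fold. The depth behind the values is unknown. At a given concentration of reads a level was lower the wider its region was, so levels of different regions are not compared here. In bulk cells, fewer cells with the mark and less mark per cell cannot be told apart.

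MLL3 (gene Kmt2c) and MLL4 (gene Kmt2d) are catalytic subunits of large complexes that place monomethylation on lysine 4 of histone H3 (H3K4me1), chiefly at enhancers. H3K4me1 marks both poised and active enhancers, and H3K27ac, written by the acetyltransferases p300 and CBP, marks active enhancers and active promoters. The same complexes carry UTX, encoded by Kdm6a, a demethylase that removes methyl groups from lysine 27, the residue that is acetylated. Naive embryonic stem cells resemble the preimplantation epiblast, and formative cells resemble the epiblast just after implantation.

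The sequences of 5 regions are printed here because each stands for a pattern described below. Each is the central 300 bases of its region on the plus strand of GRCm38 (mm10), from the RefSeq genome file. In the first pair, capitals mark a run of 20 bases that recurs on 20 chromosomes. The region nearest Olfr834 at chr9:18980886-18981185 and the region nearest Olfr332 at chr11:58474966-58475265 are each repeat-masked over all 300 bases in that file, and the first had levels of 7.65 in naive DKO and 9.08 in naive WT. The second had 5.98 in naive DKO and 8.67 in naive WT.
run 1, nearest Olfr834: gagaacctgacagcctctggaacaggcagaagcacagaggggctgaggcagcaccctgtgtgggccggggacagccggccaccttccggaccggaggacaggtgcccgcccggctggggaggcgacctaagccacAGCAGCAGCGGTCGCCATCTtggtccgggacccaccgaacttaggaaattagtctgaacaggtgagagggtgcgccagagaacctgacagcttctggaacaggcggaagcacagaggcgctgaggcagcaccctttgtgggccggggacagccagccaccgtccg
run 2, nearest Olfr332: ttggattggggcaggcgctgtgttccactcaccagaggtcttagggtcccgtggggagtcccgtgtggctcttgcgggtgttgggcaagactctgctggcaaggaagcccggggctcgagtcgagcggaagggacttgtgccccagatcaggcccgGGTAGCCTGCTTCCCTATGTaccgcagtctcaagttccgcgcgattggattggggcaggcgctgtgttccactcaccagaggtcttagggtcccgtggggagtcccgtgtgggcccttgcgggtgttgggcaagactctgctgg
In the other 3, capitals mark matches on either strand to short letters bound by transcription factor families: SOX (ACAATGG), TEAD (GGAATG), AP-1 (TGANTCA) and STAT (TTCCNGGAA). Of all distal regions, 4.21% held the SOX letters, 15.7% TEAD, 9.05% AP-1 and 0.87% STAT in the same window. A match describes letters and is not a binding site. The region nearest Cobl (intergenic, chr11:12522048-12522347) was lower in naive DKO for H3K27ac, H3K4me1 and RNA of the nearest gene. The intronic region nearest Cdc42bpb (chr12:111353347-111353646) was higher for H3K27ac. The intronic region nearest Gulp1 (chr1:44564621-44564920) was higher for H3K27ac and lower for H3K4me1.
Cobl: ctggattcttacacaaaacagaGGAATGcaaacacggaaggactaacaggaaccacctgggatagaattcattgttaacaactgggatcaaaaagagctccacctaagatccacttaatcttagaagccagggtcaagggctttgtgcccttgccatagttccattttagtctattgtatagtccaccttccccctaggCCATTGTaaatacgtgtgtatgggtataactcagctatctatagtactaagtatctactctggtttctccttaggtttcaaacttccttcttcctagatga
Cdc42bpb: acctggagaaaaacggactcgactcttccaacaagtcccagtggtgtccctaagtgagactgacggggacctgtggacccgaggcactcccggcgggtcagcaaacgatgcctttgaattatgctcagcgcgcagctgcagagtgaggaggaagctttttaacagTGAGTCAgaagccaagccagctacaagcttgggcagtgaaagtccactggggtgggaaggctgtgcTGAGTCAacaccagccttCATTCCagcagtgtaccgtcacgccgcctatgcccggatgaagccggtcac
Gulp1: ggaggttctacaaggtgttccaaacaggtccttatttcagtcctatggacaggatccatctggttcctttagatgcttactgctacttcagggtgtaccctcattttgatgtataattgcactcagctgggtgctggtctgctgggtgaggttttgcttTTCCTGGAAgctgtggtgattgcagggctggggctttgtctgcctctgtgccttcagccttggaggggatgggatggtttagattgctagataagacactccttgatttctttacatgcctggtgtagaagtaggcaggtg

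Over all 107204 regions the median difference was -0.11, with quartiles at -1.08 and 0.74. Of them 20607 (19.2%) were higher in naive DKO and 28616 (26.7%) were lower. A difference of 4-fold or more was seen at 7538 higher and 12106 lower regions. Among called regions 41.9% were higher, but that share was 51.3% after scaling both groups to the same sum, 20.8% when promoters set the scale and 50.4% under quantile normalization. These scalings moved the median of all regions by 0.21, -0.58 and 0.20, so the overall balance is not fixed by these data. Scaling to the sum or to promoters leaves differences between classes of region as they are, by construction. Among the 4933 regions left out, 2833 were listed at 0 in naive WT only, 1663 in naive DKO only and 437 in both.

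Promoters and distal regions, which are all regions not labelled as promoters, lay on opposite sides of the overall median. The 5461 promoters had a median difference of 0.58, with median levels of 8.78 in naive DKO and 8.21 in naive WT. Of these promoters 30.8% were higher and 8.17% lower. The 101743 distal regions had a median of -0.16, with median levels of 7.22 in naive DKO and 7.54 in naive WT, and 27.7% were lower. Intergenic regions were lowest at -0.69, with 41.9% lower and 14.5% higher, against -0.03 in introns, 0.24 in exons and 0.53 in 5' untranslated regions. The median was lower at each step away from the nearest transcription start site (TSS): 0.55 within 1 kb, 0.05 at 1 to 5 kb, -0.11 at 5 to 20 kb, -0.20 at 20 to 100 kb and -0.72 beyond 100 kb. At a fixed distance the split by annotation stayed, since at 20 to 100 kb intronic regions had a median of -0.08 and intergenic regions -0.65. Scaling to the sum or to promoters moves every region by the same amount, so it cannot change the gap between promoters and distal regions. After quantile normalization, which can, the medians were 0.68 at promoters and 0.05 at distal regions. Formative cells, given side by side, had a promoter median of 0.78 and a distal median of -0.74 (DKO minus WT).

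**Figure D1:**
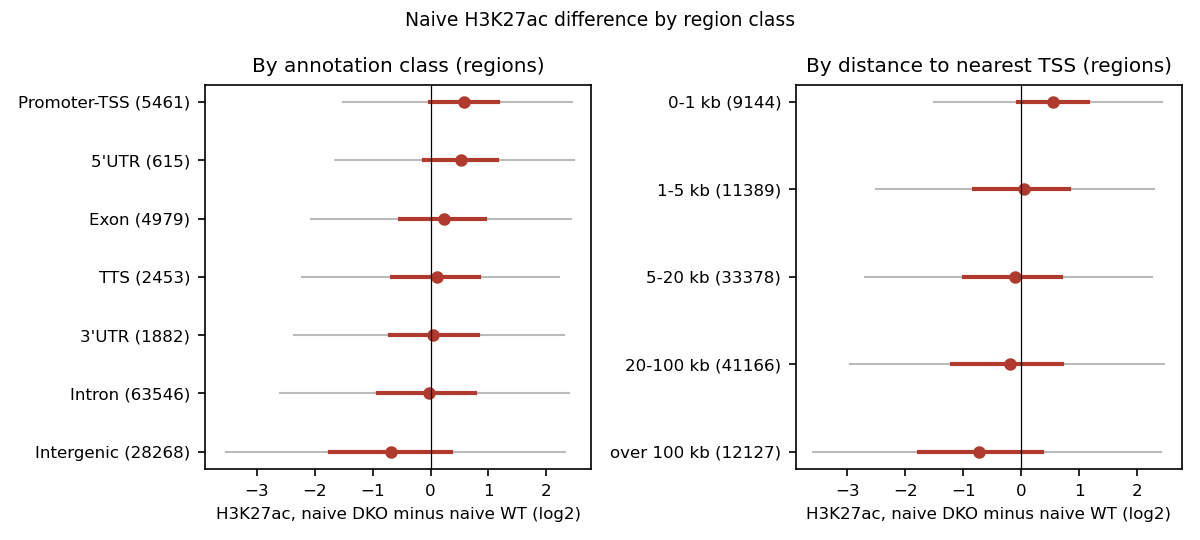
Naive H3K27ac difference (DKO minus WT, log2) by annotation class and by distance to the nearest TSS; dots are medians, thick bars quartiles, thin bars the 5th to 95th percentile, and the number of regions is in brackets. Medians run from 0.58 at promoters to -0.69 in intergenic regions, and from 0.55 within 1 kb to -0.72 beyond 100 kb.

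Distal regions in repeated sequence were lower than the rest. The reference genome file writes bases assigned to repeats in lower case (masked), and a large part of such sequence in the mouse genome comes from copies of retrotransposons. Distal regions with no masked base among their central 300 had a median difference of 0.05, and the median was lower in each following class: -0.04 for up to 20% masked, -0.16 for 20 to 50%, -0.34 for 50 to 80% and -0.56 for 80% to just under 100%. The 5593 distal regions masked over all 300 bases had a median of -1.25, with median levels of 6.71 in naive DKO and 8.17 in naive WT. Of these 57.3% were lower and 5.67% higher, and 70.6% were intergenic. Their median H3K4me1 difference was 0.00, against -0.26 at unmasked distal regions. With regions over 50% masked left out, 24.8% of distal regions were lower and 20.4% higher, and the distal median was -0.05. The intergenic median was then -0.46. Scaling to the same sum moves every difference by 0.21, so the sign of that distal median depends on the scaling. The split by annotation was also seen among regions masked over 50%, where introns had a median of -0.27 and intergenic regions -1.03. That class holds more fully masked regions among intergenic ones (3950 of 9721) than among introns (1622 of 10244). Among fully masked regions the gap was smaller, with -1.01 in introns and -1.34 in intergenic regions.

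The fully masked regions were grouped by the most widely shared runs of 20 bases, chosen from the sequence alone and outside chromosome 18. The run shown in the Olfr834 window was present in 1439 distal regions on 20 chromosomes, of which 1037 (72.1%) were lower in naive DKO and 17 higher. Their median difference was -1.43, with median levels of 6.87 in naive DKO and 8.31 in naive WT. The run shown in the Olfr332 window was present in 1246 other regions, of which 1112 (89.2%) were lower and 6 higher. Their median difference was -2.69, with median levels of 6.34 in naive DKO and 8.91 in naive WT. The median H3K4me1 difference was 0.28 for run 1 and -0.36 for run 2, beside -0.35 over all distal regions. Run 2 was thus near the distal median for H3K4me1 and run 1 above it. Run 3 (323 regions) had a median H3K27ac difference of -0.98, run 4 (227 regions) -0.19, and the 2174 fully masked regions with none of the 4 runs -0.55. Over 10 alternative settings the median of run 1 lay between -2.003 and -1.20 and that of run 2 between -3.26 and -2.36. The setting that kept regions at 0 could not change them, because runs were assigned only among regions above 0 in both groups. In formative cells the median DKO minus WT was -1.25 at run 1 and -1.66 at run 2. Copies of a repeat share sequence, so these regions are not separate measurements. How reads that match many copies were placed is not given in the sources used here, and its part in the result was not tested. The files used do not name the repeats.

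**Figure D2:**
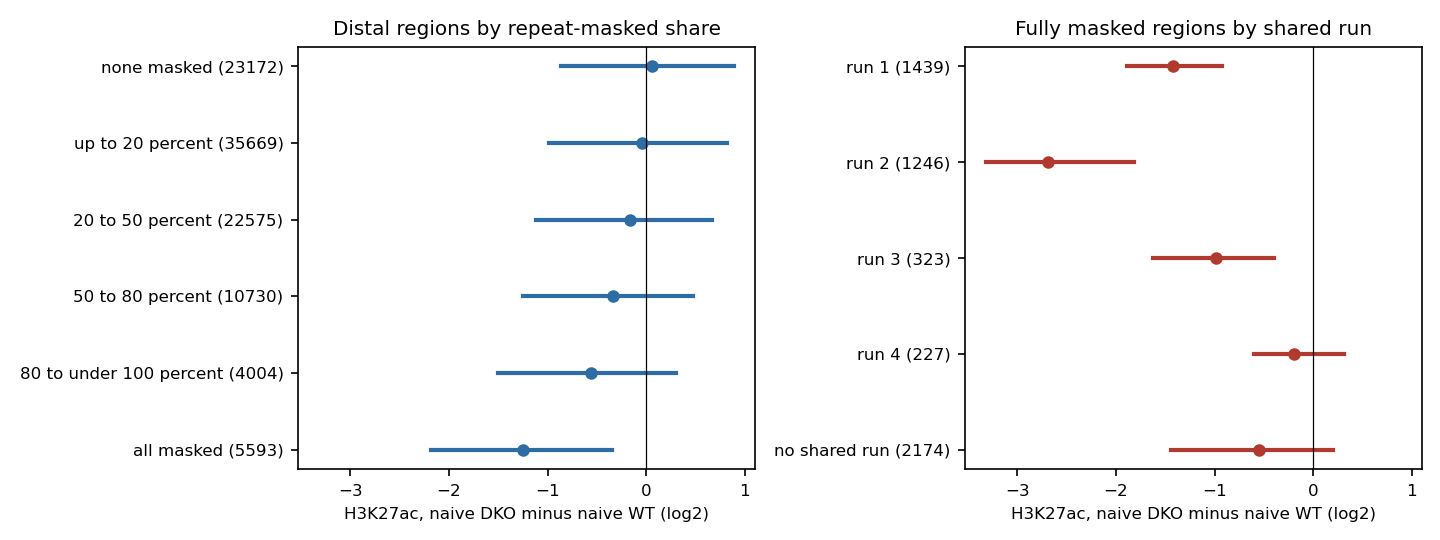
Naive H3K27ac difference (DKO minus WT, log2) at distal regions by the masked share of their central 300 bases, and at fully masked regions by shared run; dots are medians, bars are quartiles and the number of regions is in brackets. The median is 0.05 with no masked base and -1.25 with all masked, and it is lowest at run 2 (-2.69).

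Distal regions that had less H3K4me1 in naive DKO also had less H3K27ac. The H3K4me1 and RNA levels in the table come from libraries outside the series, and they too are 1 value per group. H3K4me1 was at least 2-fold lower in naive DKO at 19.8% of distal regions, and 3.92% had a difference of 2-fold or more upward. Where H3K4me1 was 4-fold or more lower (2263 regions), the median H3K27ac difference was -1.65, with median levels of 6.73 in naive DKO and 8.47 in naive WT, and 66.6% of regions were lower. At an H3K4me1 difference of -2 to -1 the median was -0.83, at -1 to -0.5 it was -0.25, within 0.5 of 0 it was 0.05, at 0.5 to 1 it was 0.32, and at 1 or more it was 0.27, no higher than in the bin before. Regions with H3K4me1 at least 2-fold lower thus lay 0.96 below those with H3K4me1 within 0.5 of 0. Without regions over 50% masked this contrast was 0.97 below, and without chromosomes 6, 8, X and Y it was 0.98 below. Across the 101743 distal regions Spearman's rho between both differences was 0.26. Neighbouring regions share domains and each mark has 1 value per group, so no p-value is given. At promoters the median H3K4me1 difference was 0.68, and the 1002 promoters with H3K4me1 at least 2-fold higher had a median H3K27ac difference of 0.74. Only 134 promoters had H3K4me1 at least 2-fold lower, and their median H3K27ac difference was -1.19.

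At single regions the marks often differed. Of 17000 distal regions within 100 kb of a gene and with H3K4me1 at least 2-fold lower, 45.6% had H3K27ac at least 2-fold lower, 45.1% were within 2-fold and 9.25% were at least 2-fold higher. The shares among all 20191 such distal regions were 47.5% lower and 8.90% higher, and after scaling to promoters 63.5% were lower. The nearest genes had a median RNA difference of -0.21 beside regions where both marks were lower. It was -0.08 where H3K27ac was within 2-fold and -0.04 where H3K27ac was higher. The share of genes with RNA at least 2-fold lower was 20.1%, 12.6% and 10.9% in these sets, beside 11.2% of all genes with RNA. A gene can be in several of these sets. In the other direction, of 39945 such regions with H3K4me1 within 0.5 of 0, 19.9% had lower and 22.3% higher H3K27ac.

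Genes with lower RNA in naive DKO had lower H3K27ac around them. Of 9781 genes with an RNA value, 8.54% had 2-fold or more RNA in naive DKO relative to naive WT, and for 11.2% the difference was as large downward. For each gene the median over its regions within 100 kb was taken, which gave 18324 genes, of which 14.2% were higher by that median and 20.2% lower, each at 2-fold or more. The 320 genes with RNA 4-fold or more lower had a median gene value of -1.17, and 54.7% of them were lower for H3K27ac. The 1075 genes with RNA at least 2-fold lower were at -0.68, the 5396 genes with RNA within 0.5 of 0 were at 0.14, and the 793 with RNA at least 2-fold higher were at 0.34. Spearman's rho across 9569 genes was 0.26, given as a description because genes share libraries and neighbours. At genes with RNA 4-fold or more higher, the 26 promoters had a median of 1.98 and the 518 distal regions 0.25. At genes with RNA 4-fold or more lower, the 61 promoters had a median of -0.999 and the 1247 distal regions -1.22.

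**Figure D3:**
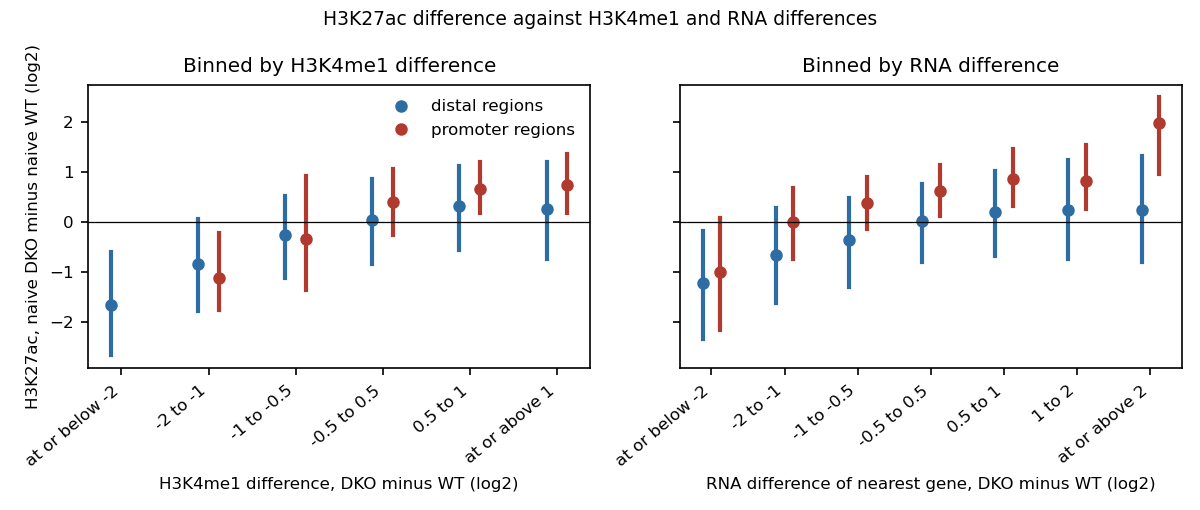
Naive H3K27ac difference (DKO minus WT, log2) in bins of the naive H3K4me1 difference of the same region and of the naive RNA difference of the nearest gene; dots are medians and bars quartiles, and bins of under 20 regions are not drawn. Distal medians run from -1.65 in the lowest H3K4me1 bin to 0.32 at 0.5 to 1 and 0.27 at 1 or more, and promoter medians from -0.999 to 1.98 over the RNA bins.

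The 6 genes at each end of the RNA difference, among those above the median RNA level, are given next. Rpl10l, a testis-expressed copy of a ribosomal protein gene whose reads can be shared with its parent, had RNA levels of 5.91 in naive DKO and 10.73 in naive WT, and all 4 of its regions were lower, with a median difference of -3.52. Smyd1, encoding a muscle lysine methyltransferase, had RNA of 0.22 in naive DKO and 4.97 in naive WT, and all 7 of its regions were lower (median -2.82). Its promoter was at 6.07 in naive DKO and 7.86 in naive WT. Ephx2, encoding soluble epoxide hydrolase, had RNA of 1.21 in naive DKO and 5.63 in naive WT with a region median of -2.71. Dpys, which encodes dihydropyrimidinase, Apobec2 and Gm8994 were the other 3 genes at this end, with RNA differences of -5.65, -4.74 and -4.46 and region medians of -0.87, -1.43 and -3.18. At the other end, Fosl2, which encodes an AP-1 subunit, had RNA of 5.07 in naive DKO and 0.55 in naive WT, and its promoter H3K27ac was at 9.85 in naive DKO and 5.90 in naive WT. The single region of Gsto1, encoding a glutathione transferase, was at 10.9 in naive DKO and 7.56 in naive WT, with RNA of 9.78 in naive DKO and 5.87 in naive WT. RNA differences of over 4-fold without a 2-fold one in acetylation were seen too: Acta1 (skeletal muscle actin) had an RNA difference of 4.64 and a region median of -0.15 over 9 regions. Piwil2, a germline gene, had 4.72 and Krt17, a keratin gene, 4.77 for RNA, with H3K27ac differences of -0.16 and 0.19 at their single regions. Bcl11b, a T cell transcription factor gene, had an RNA difference of 4.79 and a median of 0.74, with 7 of 15 regions higher and 1 lower.

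Regions around pluripotency genes were mostly lower or within 2-fold. For each list below the 2 highest and 2 lowest genes are given, and the other genes named were chosen after their values were seen. The naive pluripotency list had 24 genes with 244 regions, of which 92 (37.7%) were lower and 25 (10.2%) higher, against 24.6% and 19.8% of regions over all genes. Its median over genes was -0.32 (from -0.90 to -0.10 over 11 alternatives), beside -0.01 over all genes. By gene median 8 were lower and 1 higher, beside 20.2% and 14.2% of all genes. RNA was lower for 6 and higher for 3 of 21 genes, beside 11.2% and 8.54% of all genes with RNA. The lowest were Nr0b1 on chromosome X (-3.03) and Tcl1 (-2.79), both with 2 regions, of which 1 and 2 were lower. Nr5a2, an orphan nuclear receptor gene, was lower at 8 of 12 regions, and Klf2, encoding a Krüppel-like factor, at 13 of 16. The Klf2 promoter was at 6.34 in naive DKO and 8.70 in naive WT, while its RNA was 8.32 in naive DKO and 9.09 in naive WT. The highest were Socs3, a feedback inhibitor of STAT3 signalling (1.67, with 3 of 4 regions higher), and Dppa3 (0.70). Klf4 had a promoter level of 9.86 in naive DKO and 9.19 in naive WT and RNA of 9.38 in naive DKO and 7.53 in naive WT. Esrrb and Nanog, which encode regulators of naive cells, had gene medians of -0.37 and -0.22. The core pluripotency list of 15 genes had a median of -0.56 (-1.14 to -0.30). Of these genes 5 were lower and none higher, beside 20.2% lower and 14.2% higher of all genes. Sall1 (-2.53) and Etv4 (-2.39) were lowest and Zfp281 (0.47) and Sall4 (0.36) highest. Utf1, a chromatin factor gene of stem cells, was lower at all 5 regions, with promoter levels of 6.36 in naive DKO and 8.56 in naive WT and RNA of 3.33 in naive DKO and 6.05 in naive WT. Sox2 had a promoter level of 7.32 in naive DKO and 8.23 in naive WT, and near-equal RNA of 7.80 in naive DKO and 7.94 in naive WT.

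Of the 20 genes of LIF and STAT3 signalling, which sustains naive cells, 5 were lower and 3 higher, shares near the 20.2% and 14.2% of all genes, and the list median of -0.18 changed sign over the alternatives (-0.76 to 0.08). Lifr, the LIF receptor, was lower at 17 of 23 regions, and Osmr, a related receptor gene, at 3 of 4, both with medians of -1.58. Socs3 and Pias3, which encode inhibitors of STAT3, were at 1.67 and 1.54, but Socs2 was at -0.55. The formative list of 24 genes had a median of -0.30 (-0.88 to -0.06), with 8 genes lower and 5 higher, beside 20.2% and 14.2% of all genes. Etv4 and Otx2, which encodes a transcription factor of formative cells, were lowest at -2.39 and -2.27, and Sox11 (1.59) and Pim2 (1.51) highest. The promoter of Pou3f1, a marker of formative cells, was at 8.61 in naive DKO and 6.73 in naive WT, but its gene median was -0.13, with 2 of 8 regions higher and 2 lower.

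Lineage genes differed from one another. Krt18, encoding a simple-epithelium keratin, was the highest of all list members: all 6 of its regions were higher, with a median of 3.87, and its RNA was 5.48 in naive DKO and 2.52 in naive WT. The promoter of its partner Krt8 was at 6.91 in naive DKO and 4.12 in naive WT, and that of Krt19 at 7.48 in naive DKO and 2.28 in naive WT. By gene median neither was called, with 0.53 for Krt8 (2 of 6 regions higher and 1 lower) and 0.51 for Krt19 (1 of 3 higher). The RNA of Krt18, Krt8 and Krt19 was higher in naive DKO, by 2.95, 1.71 and 1.94. Krt7, another keratin gene of the list, had a gene median of -0.94 and an RNA difference of 3.29. Its naive WT RNA of -1.59 was near the lowest RNA level of -2.29. Yet the trophoblast and epithelium list of 13 measured genes had a median of 0.01 (-0.57 to 0.22). By gene median 1 was higher and 2 lower, beside 14.2% and 20.2% of all genes. Tfap2c, encoding a trophoblast and germline transcription factor, was lower at 10 of 13 regions (median -2.16). Hand1 was at -1.05, and Eomes was next below Krt18 at 0.53. The RNA median of this list was 1.71 over 9 genes, with 5 higher and 2 lower, beside 8.54% and 11.2% of all genes with RNA. The primitive endoderm list had a median of 0.03 (-0.55 to 0.23), with Hnf4a (-2.02) and Cubn (-1.95) lowest and Pdgfra (1.98, 1 region) and Amn (0.67) highest. Its RNA median was 1.31 over 8 genes, with 5 higher and none lower, beside 8.54% and 11.2% of all genes with RNA. The 14 measured primed and mesendoderm genes had a median of -1.02 (-1.60 to -0.20), 7 of them lower and none higher. The shares over all genes were 20.2% lower and 14.2% higher. T (Brachyury) was lowest at -3.27 and Gsc next at -1.51, with Evx1 (0.73) and Mixl1 (0.72) highest. RNA could differ the other way: Lefty2, a Nodal inhibitor gene, was lower at 5 of 7 regions while its RNA was 9.18 in naive DKO and 6.49 in naive WT. Wnt3 had RNA of 4.12 in naive DKO and 0.02 in naive WT with a median of 0.29. Of 8 germline and 2-cell-like genes, 5 had lower and 1 higher RNA (median -1.99), beside 11.2% and 8.54% of all genes with RNA. The list median for H3K27ac was -0.30 (-0.88 to 0.04). Tfap2c (-2.16) and Nanos3 (-1.32) were lowest and Dazl (1.23) and Dppa3 (0.70) highest, and the RNA of Dazl was 1.46 in naive DKO and 4.56 in naive WT. The fibroblast list (7 measured genes, median -1.05, from -1.63 to -0.40) and the neural list (6 genes, -1.17, from -1.75 to -0.52) were low with 14 regions each. Pdgfrb (-3.68) and Twist1 (-2.62) were lowest and Lum (0.14) and Thy1 (-0.05) highest in the first, and Pax3 (-1.998) and Pax6 (-1.50) lowest and Nes (-0.12) and Tubb3 (-0.52) highest in the second. RNA was higher for 1 and lower for 1 of 5 fibroblast genes (median -0.42). For 5 neural genes it was higher for 2 and lower for none (median -0.47). The shares over all genes with RNA were 8.54% higher and 11.2% lower.

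The 18 measured housekeeping genes had a median of 0.67 (0.10 to 0.88), with 3 higher and none lower, beside 14.2% and 20.2% of all genes. Of their 105 regions 23.8% were higher and 2.86% lower, beside 19.8% and 24.6% of regions over all genes, so the higher share was near that of all genes. Hprt (1.47) and Rplp0 (1.396) were highest and Rpl13a (-0.51) and Tbp (-0.26) lowest. The 61 measured ribosomal protein genes had a median of 0.16, which changed sign over the alternatives (-0.41 to 0.41), with 4 higher and 4 lower and 13.5% of regions higher and 17.9% lower, and with Rplp0 and Rpl22 (1.29) highest and Rps27a (-3.32) and Rps4x (-1.59) lowest. Many ribosomal protein genes have near-identical copies, so their values are uncertain. Among 17 genes of H3K4 methylation complexes the median was 0.21 (-0.36 to 0.50). Pagr1a, a subunit gene of the MLL3 and MLL4 complexes (2.18), and Men1, encoding menin of the MLL1 and MLL2 complexes (1.51), were highest. Wdr5, a subunit gene common to all of these complexes, was lowest at -1.03 with 7 of 13 regions lower, and Kmt2c was next at -0.96. The 14 genes of H3K27 acetylation and deacetylation had a median of 0.16 (-0.42 to 0.37). Kat2b, encoding the acetyltransferase PCAF, was lower at 19 of 22 regions, with a promoter level of 5.01 in naive DKO and 7.41 in naive WT and RNA of 3.65 in naive DKO and 5.20 in naive WT. Hdac2 was at -1.02, and Hdac3 (1.28) and Kat2a (0.83) were highest. Ep300, encoding p300, had a promoter level of 9.72 in naive DKO and 8.63 in naive WT and a gene median of 0.12. The 14 Polycomb genes had a median of 0.23 (-0.35 to 0.44), with Ring1 (1.39) and Cbx2 (1.27) highest and Pcgf1 (-0.77) and Mtf2 (-0.63) lowest.

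At the deleted genes, Kmt2c on chromosome 5 had 2 intronic regions within 100 kb of its TSS. That at 25478535 to 25479038 was at 7.57 in naive DKO and 8.80 in naive WT, and that at 25486550 to 25487638 at 6.99 in naive DKO and 7.67 in naive WT. The Kmt2d promoter on chromosome 15, 98871415 to 98872665, was at 9.32 in naive DKO and 8.98 in naive WT, and its other 4 regions differed by -0.32 to 1.10. RNA of Kmt2c was 4.46 in naive DKO and 5.61 in naive WT, and that of Kmt2d 4.13 in naive DKO and 4.86 in naive WT. The deleted parts are not given, so these values check nothing about the knockout. Kdm6a on chromosome X had 11 regions, of which 4 were lower and 1 higher, and its exonic region at 18161498 to 18164572 was at 9.46 in naive DKO and 8.94 in naive WT.

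Promoters at least 500 bases wide and above the median level were ranked by difference. Those at each end had RNA differences of the same sign where RNA was listed. Cbr3, encoding a carbonyl reductase, had levels of 11.95 in naive DKO and 8.61 in naive WT at its promoter on chromosome 16, 93681996 to 93683005, and RNA of 7.83 in naive DKO and 4.47 in naive WT. Plec, encoding the cytolinker plectin, was at 8.54 in naive DKO and 4.30 in naive WT (chromosome 15, 76193563 to 76198994). Cyp7b1, an oxysterol hydroxylase gene, was at 11.13 in naive DKO and 7.74 in naive WT with an RNA difference of 1.90, and Nuak1, a kinase gene, at 9.23 in naive DKO and 5.57 in naive WT with an RNA difference of 1.66. Lims1, encoding an adaptor of integrin adhesions, differed by 3.20. At the other end, Gm30214 was at 4.75 in naive DKO and 9.44 in naive WT, and 2410141K09Rik at 4.81 in naive DKO and 8.71 in naive WT with an H3K4me1 difference of -3.89. Adipor2, an adiponectin receptor gene, was at 5.29 in naive DKO and 9.08 in naive WT (chromosome 6, 119416662 to 119419829), although H3K4me1 differed by 0.04 and RNA by -0.38. Prrt3, also on chromosome 6, differed by -3.28. Slc5a11, encoding a sodium and inositol transporter, was at 5.83 in naive DKO and 9.06 in naive WT, with RNA of 1.01 in naive DKO and 3.97 in naive WT.

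Distal regions spread further. The intergenic region nearest 2410141K09Rik (chromosome 13, 66449316 to 66451312) was at 2.60 in naive DKO and 9.24 in naive WT, with an H3K4me1 difference of -5.45. The regions nearest Lix1 (3.74 in naive DKO and 9.47 in naive WT) and Tmem64 (5.30 in naive DKO and 10.84 in naive WT) were lower for H3K4me1 by 2-fold or more and had RNA differences of -4.27 and -2.41. Of the same kind were the region nearest Cobl, an actin nucleator gene, at 4.75 in naive DKO and 9.61 in naive WT with RNA of 5.80 in naive DKO and 7.66 in naive WT, and an intronic region nearest Ttc29 (-4.63). Those nearest Clec3a (-5.73) and C530044C16Rik (-5.43) had no listed RNA. Among the highest were an intergenic region on chromosome Y nearest G530011O06Rik (11.80 in naive DKO and 5.52 in naive WT) and intronic ones nearest Cdc42bpb, a kinase gene (10.55 in naive DKO and 4.99 in naive WT), Nod1, a sensor gene of bacterial peptidoglycan (11.29 in naive DKO and 6.19 in naive WT) and Mettl24 (4.97 higher). The Cdc42bpb region, which holds 2 AP-1 matches and a TEAD match in the window shown, had RNA of its nearest gene at 2.26 in naive DKO and 2.72 in naive WT.

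Of 50871 distal regions above the median level, at any width and H3K4me1 difference, 11745 were lower and 6437 higher for H3K27ac. Set beside them were 8017 distal regions above the median level, at least 500 bases wide and with H3K4me1 at least 2-fold lower. Of these 8017 regions, 3644 were lower and 246 higher for H3K27ac. The 5 highest were intronic and nearest Foxp4 (8.03 in naive DKO and 5.01 in naive WT), Gulo (8.93 in naive DKO and 5.995 in naive WT), Etl4 (a difference of 2.80), Lrp1 (2.74) and Gulp1 (11.39 in naive DKO and 8.68 in naive WT). Their H3K4me1 differences ran from -1.67 at Gulo to -1.01 at Foxp4. Where RNA was listed it was not higher: it differed by -0.45 at Foxp4, a forkhead factor gene, by -2.55 at Gulo, a gene of vitamin C synthesis, and by -0.45 at Lrp1, an endocytic receptor gene.

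**Figure D4:**
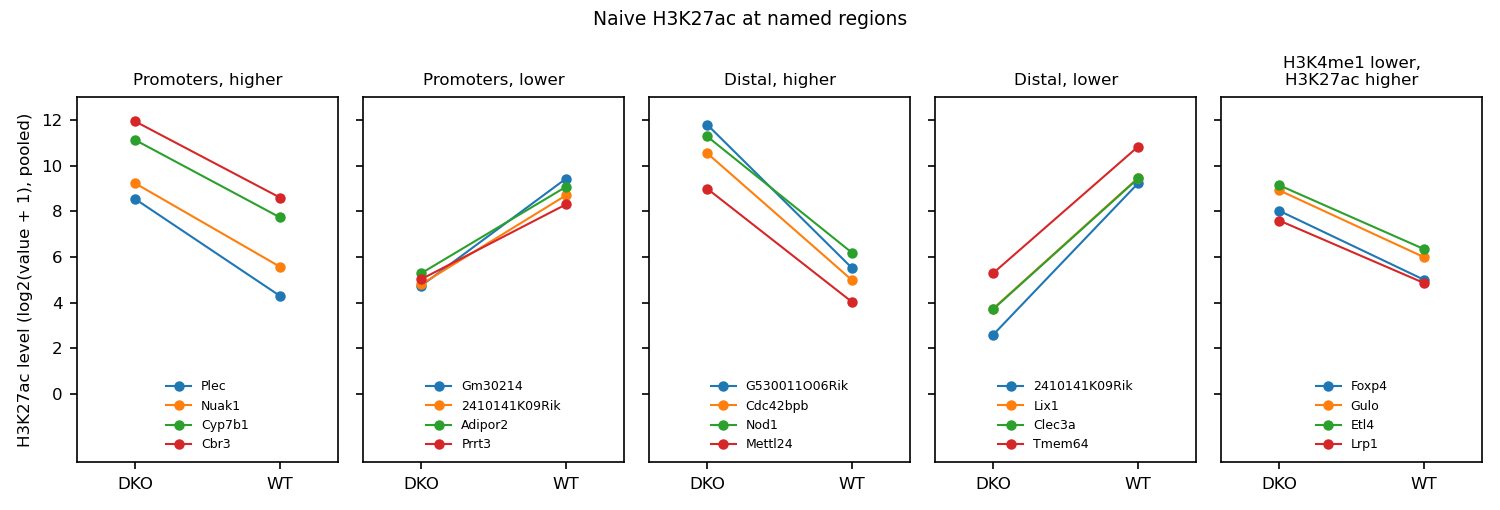
Naive H3K27ac levels (log2(value + 1), 1 pooled value per group) of named regions in DKO and WT cells, in 5 panels of 4 regions each, labelled by nearest gene. Lines join the levels of 1 region; the lowest DKO level is 2.60, at the distal region nearest 2410141K09Rik, where WT is at 9.24.

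At some genes nearly every region differed in the same direction. Of 3882 genes with at least 8 regions, 120 had at least 75% of them lower and 35 at least 75% higher; the genes named here were picked after their values were seen. All 21 regions of Sh3gl2, an endophilin gene, were lower, with a median of -2.18 and RNA of 4.68 in naive DKO and 6.87 in naive WT. All 18 regions of Dnah8, a dynein gene, were lower (median -2.38, RNA difference -1.82), as were all 13 of Tmem64 (median -3.78, RNA difference -2.41), all 11 of Slc35f2 (median -2.71, RNA difference -2.81) and all 9 of Ak4, a mitochondrial adenylate kinase gene (median -2.22, RNA difference -2.42). All 13 regions of Asns, encoding asparagine synthetase, were lower too (median -2.02), but its RNA was 8.64 in naive DKO and 8.57 in naive WT. On the higher side were Smad7, an inhibitor of TGF-beta signalling (10 of 10 regions, median 1.75), Ptpn14, a phosphatase gene (23 of 26, median 2.48), Tcf7l2, a Wnt effector gene (18 of 22, median 2.20), and Ror2, a Wnt receptor gene (11 of 12, median 1.81, RNA difference 1.24). Slc40a1, encoding the iron exporter ferroportin, was higher at 7 of 8 regions with an RNA difference of 2.60. The H3K4me1 gene medians were -0.23 at Ptpn14, 0.24 at Tcf7l2 and 0.10 at Ror2. Erdr1 on chromosome Y, higher at 10 of 10 regions with a median of 2.39, had an H3K4me1 median of 2.03. Over all 91 regions of chromosome Y the median H3K27ac difference was -1.17, with 23.1% higher and 51.6% lower.

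The differences were not even over the chromosomes. The median H3K27ac difference was -0.49 on chromosome 6, -0.46 on chromosome 8 and -0.79 on chromosome X, while the other 17 autosomes lay between -0.17 and 0.15. Promoters were at 0.18 on chromosome 6 and 0.08 on chromosome 8 against 0.50 to 0.90 on the other 17, but at 0.46 on chromosome X, where distal regions were at -0.94. The distal medians of windows of 20 Mb ran from -0.75 to -0.25 over the 8 windows of chromosome 6 and from -0.65 to -0.36 over the 7 of chromosome 8, all below the distal median of -0.16 over all chromosomes. On chromosome 14 they ran from -0.37 to -0.03. In formative cells the medians were -1.06 on chromosome 6 and -1.21 on chromosome 8, against -0.74 to -0.34 on the other 17. H3K4me1 and RNA, from other libraries, were low on partly other chromosomes. H3K4me1 had medians of -0.57 on chromosome 8, -0.55 on chromosome 14 and -0.56 on chromosome 17, against -0.31 to -0.15 on the other 16 autosomes. RNA had medians of -0.08, -0.22 and -0.26 on those 3, against -0.05 to 0.22. The chromosome numbers of these cells are not given, and their part in the result was not tested. On chromosome X, 50.5% of distal regions were over 50% masked, and these had a median of -1.42, against -0.44 for the others. Without chromosomes 6, 8, X and Y the median was 0.63 at promoters and -0.08 at distal regions.

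**Figure D5:**
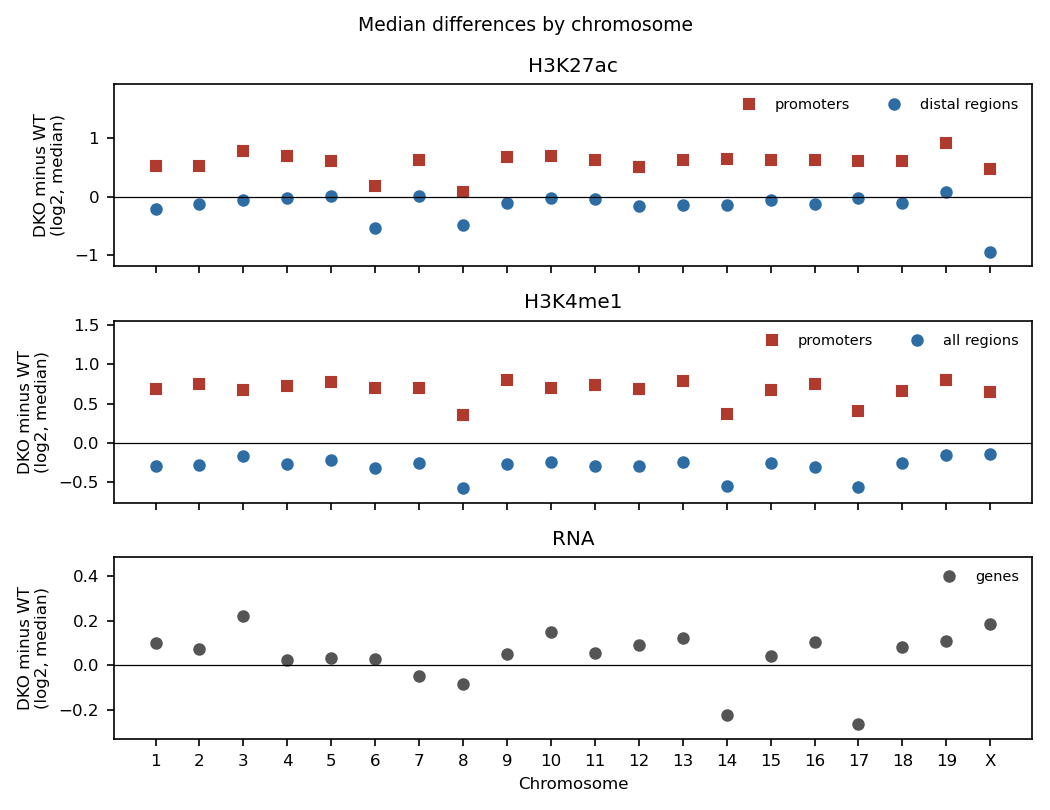
Median difference (naive DKO minus naive WT, log2) on each chromosome for H3K27ac at promoters and distal regions, for H3K4me1 at promoters and all regions, and for RNA of genes; chromosome Y is not drawn. H3K27ac is low on chromosomes 6 and 8 at promoters and distal regions and on X at distal regions, while H3K4me1 is low on chromosomes 8, 14 and 17 and RNA on 14 and 17.

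By the authors' concentration in naive WT (from DiffBind), regions were put in 5 equal bins. The lowest bin had a median difference of 1.04 and the highest -0.38. That measure is made from the naive WT libraries, so it shares their error with the difference. By the concentration in formative WT, from other libraries, the order was opposite, with -0.74 in the lowest of 5 bins and 0.12 in the highest. Promoters were above 0 in all 5 bins by the naive value, from 1.82 in the lowest to 0.46 in the highest.

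Short letters in the central 300 bases were compared between sets by their share. Regions lower for both marks held the letters TCAAGGTCA, bound by ESRRB, in 1.74% of cases, the POU octamer (ATGCAAAT) in 2.17% and the SOX letters in 6.74%, against 0.98%, 1.49% and 4.21% of all distal regions. With regions over 50% masked left out these shares were 1.72%, 2.14% and 5.74% of regions lower for both marks, against 0.94%, 1.48% and 4.16%. Regions with lower H3K4me1 and H3K27ac within 2-fold had 1.68%, 1.83% and 5.01%, and regions with lower H3K27ac and H3K4me1 within 0.5 of 0 had 0.82%, 1.52% and 3.77%. The 992 distal regions with the ESRRB letters had a median difference of -0.45, against -0.15 for those without. Those with the ETS letters (CCGGAAG) split by masking: 1160 regions over 80% masked had a median of -1.47 and 1331 regions at most 20% masked had 0.26. The medians with the POU and SOX letters were -0.37 and -0.31, against -0.15 without each. The remaining letters were searched on both strands too. At distal regions the median was 0.25 with SP (GGGGCGGG) and 0.11 with GRHL (ACCGGTT). It was 0.27 at the 89 regions with NRF1 (GCGCATGCG) and 0.18 at the 180 with CTCF (AGGGGGCGC). With KLF (GGGNGTGG) it was -0.10, with TEAD -0.14, with AP-1 -0.13 and with STAT -0.03. Regions without each of these letters had a median of -0.16 in every case. SP and CTCF letters can overlap. By the number of CpG dinucleotides in the window, promoters with 0 to 4 had a median of 0.21 and those with 20 or more 0.66, with H3K4me1 differences of 0.10 and 0.79.

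Markers of the cell type were read from the RNA values, which come from other libraries and whose unit is not stated, so levels of different genes are not compared. All 10 embryonic stem cell markers had a value, Pou5f1 (2.49 in naive DKO and 3.25 in naive WT) included, from 2.49 to 9.38 in naive DKO and from 3.25 to 9.44 in naive WT, with Klf4 at least 2-fold higher and Dppa5a (7.04 in naive DKO and 8.46 in naive WT) at least 2-fold lower. Fgf5, a formative marker, was at -0.35 in naive DKO and -0.27 in naive WT. Of 6 trophoblast markers 3 had a value, all keratins and all higher in naive DKO. Krt7 was at 1.69 in naive DKO and -1.59 in naive WT, Krt8 at 3.84 and 2.13, and Krt18 at 5.48 and 2.52. Cdx2, Elf5 and Eomes had no listed RNA. Ascl2 and Tead4, of the trophoblast and epithelium list, had RNA differences of -1.09 and -1.11. Of 9 fibroblast markers 3 had a value, between -0.35 and 0.99 in naive DKO and between -1.59 and 0.24 in naive WT. Col1a2 was at least 2-fold higher (an RNA difference of 1.39), while Twist1 differed by 0.81 and Thy1 by -0.59. Gata6, 1 of 4 primitive endoderm markers and the only one of them with a value, was at -0.54 in naive DKO and -1.59 in naive WT. Col1a2, Krt7 and Gata6 had the same naive WT value of -1.59, near the lowest RNA level of -2.29. Their differences thus rest on a value near the floor. The part of other cell types in these results was not tested.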

How the data were processed

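H3K27ac CUT&Tag was done in mouse embryonic stem cells, with 2 libraries in each of 4 groups. Trim Galore, Bowtie2, SEACR, DiffBind and deepTools were used on mm10, per the submitters' processing notes, which give no order or versions. The deposited table holds log2(value + 1) levels that the authors pooled to 1 value per group over 112137 regions. Of the scaling between groups, the depth and the handling of reads with many matches, the sources used here say nothing. H3K4me1 and RNA levels are deposited log2 values from libraries outside the series, and the linear RNA unit is not stated. The DiffBind concentrations are the authors' log2 means of normalized reads in the WT libraries. Another 8 columns of per-group levels were not used. Widths and distances are in bases, as deposited by the authors. As each group has 1 pooled value, the tests foreseen for single libraries could not be run, and differences were described by size.

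The naive DKO minus naive WT difference was taken at regions above 0 in both, and called at an absolute value of at least 1. A gene's value was the median over its regions within 100 kb. Genes in the table numbered 19135, of which 19082 matched RefSeq names. Of regions at least 500 bases wide and above the median level, corrected for width, the 5 highest and 5 lowest promoters and distal regions were named. So were the 5 lowest distal regions with lower H3K4me1 and RNA, the 5 highest with lower H3K4me1, the 6 genes at each end of RNA, the 2 members at each end of a list, and Kmt2c, Kmt2d and Kdm6a. A region that this rule picks is not reported here. The members and the 15 lists were chosen with earlier results of these data known. Masked bases, motifs and shared runs were read from the central 300 bases in GRCm38. The alternatives were other scalings, filters, a pseudocount, centring by chromosome and omissions. Scripts were tested on simulated data and used Python 3.11.15, numpy 2.4.6, pandas 2.3.3, scipy 1.17.1, statsmodels 0.14.6 and matplotlib 3.10.9.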

Additional observations from a re-analysis of the deposited data

How the results depend on the processing

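The deposited values do not fix the overall balance. The median over all regions was above 0 after scaling to the sum (0.100), quantile normalization (0.0914) and a loess offset (0.0439), and without regions over 50% masked (0.0048). It was -0.69 after scaling to the promoter median, with 11426 regions higher and 43633 lower. The distal median was 0.0530 after scaling to the sum, 0.0473 after quantile normalization, -0.0013 after the loess offset, -0.73 after scaling to promoters and -0.0461 without regions over 50% masked. The promoter median was 0.79, 0.68 and 0.00 after scaling to the sum, quantile normalization and scaling to promoters. Without the lowest of 4 bins of level, and so with fewer regions, 12093 were higher and 19549 lower. With a pseudocount of 23.9, the contrast by H3K4me1 was -0.82 and that between genes with lower and higher RNA -0.87. The lowest minus the highest of 5 bins of naive concentration was 1.08 without the lowest bin of level, 1.75 with regions at 0 kept, 1.11 with the pseudocount, 1.30 without regions over 50% masked, and -0.86 with bins of formative WT concentration. The cause was not tested. Of the main values under the alternatives, 66 stayed within a tolerance, 16 moved and 7 changed sign. The tolerance was 0.1 for medians and contrasts, and a wider one by fold for counts of regions. The counts after scaling to the sum, 25585 higher and 24294 lower, are thus among the 66 although their balance changed. The 66 include contrasts between classes that scaling to the sum or to promoters cannot change. The omissions of chromosomes and of masked regions were chosen after seeing the data. No paired analysis was possible because the levels are pooled over replicates, so the replicate block and leaving out each replicate were not run. Depth is unknown, so the precision of single regions cannot be given.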
